A study of Mus musculus with 18 samples.

Results

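Control epididymal white adipose tissue (eWAT) was compared with control liver, gene by gene, in the RNA-seq libraries of mice that had received chow and tap water. Both groups were male wild type C57BL/6 mice aged 18 weeks, and each held 3 libraries: CON14L, CON16L and CON72L (replicates 1 to 3) of liver, and CON16W, CON71W and CON72W (replicates 1 to 3) of eWAT, which the labels call WAT. These are 6 of the 18 libraries of the series, whose other libraries are of muscle and of mice on a high-salt diet. A gene entered the comparison when its mean over the 6 libraries was at least 0.5 FPKM, the unit of fragments scaled to exon length and to the depth of the library, and 12719 of the 21899 genes listed did. Values of a gene are given below in the library order above, first for liver and then for eWAT. Whole pieces of tissue were used, so that fewer cells of a type and less RNA per cell cannot be told apart. The labels do not say that the 3 libraries of a tissue came from separate mice, and the p-values measure the spread between these libraries.

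Hepatocytes make up most of the mass of the liver. They secrete albumin, clotting factors, complement and lipoproteins into the blood, release glucose, make urea and bile acids and modify drugs. White adipocytes instead hold triglyceride in a single large droplet, coated by perilipins, and break it down through a chain of lipases when catecholamines bind β-adrenergic receptors. They also secrete hormones, among them leptin and adiponectin. Hepatocyte genes are known to be driven by HNF4A, FOXA and C/EBP factors, and adipocyte genes by PPARγ together with C/EBPα.

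Some libraries stood apart within their group. The liver libraries held between 7628071 and 11627773 fragments on listed genes and the eWAT libraries between 15155784 and 16637489. Mitochondrially encoded genes took 60.8% of the fragments in CON14L, 25.7% in CON16L and 37.8% in CON72L, and 3.99% to 4.34% in the eWAT libraries. CON16L alone held RNA of skeletal muscle: 19 of 20 muscle markers were at 1 FPKM or more, with a summed level of 6027 FPKM against 9.76 and 5.75 FPKM in the other liver libraries, a median of 5.42% of the level in control muscle. The 5 blood cell markers summed to 5626 FPKM in CON16L and 5667 FPKM in CON16W, and to between 243 and 842 FPKM in the other libraries. Of 15 male germ cell markers, 9 were at 1 FPKM or more in CON71W, 4 in CON16W and 0 in CON72W. Across genes, libraries of the same tissue correlated at r of 0.862 to 0.947 for liver and 0.979 to 0.983 for eWAT, and libraries of different tissues at 0.423 to 0.530.

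The markers of each tissue were in the tissue that the labels name. Adiponectin (Adipoq), a hormone that only adipocytes are known to secrete in quantity, stood at 0, 1.31 and 0.0792 FPKM in liver and 2129, 1974 and 2041 FPKM in eWAT. Perilipin 1 (Plin1), the droplet coat of mature adipocytes, stood at 0.0282, 0.499 and 0.0235 FPKM in liver and 501, 561 and 584 FPKM in eWAT. In both, all eWAT libraries were far above all liver libraries, and CON16L was the highest of the liver libraries. Albumin (Alb) stood at 5154, 34685 and 26057 FPKM in liver and 108, 167 and 53.9 FPKM in eWAT. Transthyretin (Ttr), a carrier of thyroid hormone, stood at 529, 6190 and 5127 FPKM in liver and 17.8, 24.6 and 9.22 FPKM in eWAT. Both were lowest in CON14L among the liver libraries and were present at a low level in every eWAT library. The fold changes (log2, eWAT minus liver, ± SE) were 11.31 ± 0.49 for Adipoq, 9.72 ± 0.29 for Plin1, -7.39 ± 0.86 for Alb and -7.28 ± 0.98 for Ttr.

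The level of hepatocyte genes in control eWAT was measured on 25 plasma protein genes with at least 50 FPKM in liver. Whether their RNA in eWAT came from liver or from eWAT itself was not tested. Their median level was 0.815% of the mean liver level in CON16W, 1.14% in CON71W and 0.522% in CON72W. A working description of these libraries was that they hold under 1% of liver RNA. By this median, CON71W was above 1% when the mean of all 3 liver libraries was the reference. With CON14L left out of the reference, all 3 were under 1%, at 0.699%, 0.935% and 0.425%. The 3 eWAT libraries kept the same order for most hepatocyte genes named below, with CON71W highest and CON72W lowest. In the other direction, 10 adipocyte genes stood at a median of 0.00257%, 0.101% and 0.00193% of their eWAT level in CON14L, CON16L and CON72L.

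Of 12719 genes, 7939 were higher in eWAT and 930 were higher in liver, at an adjusted p under 0.05 and a change of at least 2-fold in the FPKM as deposited. That is 62.4% and 7.31% of the genes tested. The median gene was 1.38 higher in eWAT on the log2 scale. After the libraries were scaled by the median ratio of their genes, that median was 0.10, and 2842 genes (22.3%) were higher in eWAT and 2404 (18.9%) in liver. The share of eWAT-high genes among all calls was 89.5% as deposited and 54.2% after scaling, and 0 genes were called in opposite directions by them. The split of calls between the tissues thus depended on the scaling, while 2842 genes (22.3%) were called higher in eWAT and 929 (7.3%) higher in liver under both. Below, a gene is called higher in a tissue when both scalings call it. The count in the FPKM as deposited follows where it is a different one. List counts are to be read beside the shares of all genes given above for the same rule. A gene whose mean is under the filter in 1 tissue entered the comparison through the other. The filter thus set its direction, and its call is a description. At a 16-fold difference in the FPKM as deposited, 433 genes (3.4%) were higher in eWAT and 328 (2.58%) in liver, and the groups did not overlap in any of these. Over all genes tested, the 3 eWAT libraries lay above the 3 liver libraries in 9585 and below them in 1213, together 84.9%. Without CON16L the counts as deposited were 8271 and 916 at 2-fold and 566 and 320 at 16-fold, and without CON14L 7935 and 982, and 378 and 345, each higher in eWAT first. An exact permutation test of 3 against 3 libraries reaches no p under 0.1, which is why limma alone was used for single genes.

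**Figure D1:**
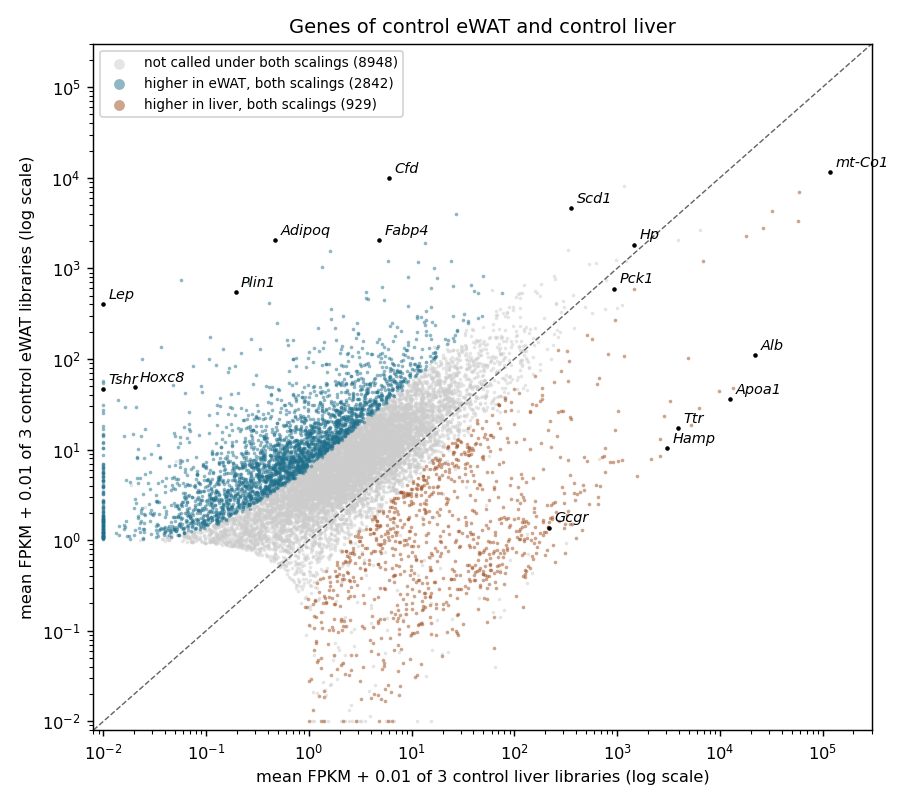
Mean FPKM of each of the 12719 genes tested in the 3 control liver libraries (x axis) and the 3 control eWAT libraries (y axis), both with 0.01 added and on log scales, with the dashed line at equal values. Blue points are the 2842 genes higher in eWAT and brown points the 929 higher in liver under both scalings. Adipoq, Plin1 and Lep lie at the upper left, and Alb, Apoa1 and Hamp at the right, below the line.

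The 10 largest rises in eWAT, among genes whose groups do not overlap and that reach 10 FPKM there, were adipocyte products in the main. Adipsin (Cfd), a serine protease of the alternative complement pathway secreted by fat, stood at 0.569, 16 and 1.42 FPKM in liver and 10714, 9353 and 9472 FPKM in eWAT. It was the most abundant of the 10 in eWAT, and its liver value in CON16L was above those of the other liver libraries. Adipoq, at 2048 ± 77.7 FPKM (SD, n = 3) in eWAT, was the next by fold change. Neuronatin (Nnat), a small membrane protein of the endoplasmic reticulum, stood at 0, 0.141 and 0 FPKM in liver and 834, 770.0 and 652 FPKM in eWAT. For Nnat, 2 of the 3 liver libraries held no fragment. Resistin (Retn), a hormone of mouse adipocytes, stood at 0, 0.763 and 0 FPKM in liver and 646, 689 and 747 FPKM in eWAT. Leptin (Lep), which reports fat stores to the brain, had no fragment in any liver library and stood at 304, 525 and 378 FPKM in eWAT, at least 12769-fold higher when 3 fragments over the liver group are taken as the limit. CON16L was again the only liver library with Retn fragments. Cidec, which fuses lipid droplets, stood at 1.62, 2.18 and 1 FPKM in liver and 1476, 1593 and 1610 FPKM in eWAT. The fatty acid carrier Fabp4 stood at 0.905, 12 and 1.53 FPKM in liver and 2100, 2020 and 2057 FPKM in eWAT, again with CON16L highest in liver. Sncg, or synuclein gamma, did not share this order in liver. It stood at 1.08, 1.01 and 1.92 FPKM in liver and 874, 1212 and 982 FPKM in eWAT. The amine oxidase Aoc3, present on adipocytes and vessels, stood at 0.0284, 0.726 and 0.449 FPKM in liver and 373, 448 and 427 FPKM in eWAT. Each of the 10 had eWAT values within a factor of 2 of each other. Their fold changes ran from 8.93 for Aoc3 to 11.57 for Cfd, with standard errors from 0.21 for Nnat to 0.97 for Cfd, and the limma adjusted p from 2.02e-06 for Nnat to 5.89e-05 for Fabp4.

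The 10 largest falls, that is, genes highest in liver against eWAT, were secreted proteins, lipid carriers and drug-metabolising enzymes. Hepcidin (Hamp), the hormone that limits iron export into blood, stood at 2435, 1551 and 5154 FPKM in liver and 2.28, 22.5 and 6.16 FPKM in eWAT. Its liver values differed by a factor of over 3 and its eWAT value was highest in CON71W. Apolipoprotein A-I (Apoa1), the main protein of high-density lipoprotein, stood at 5512, 19417 and 12703 FPKM in liver and 35.1, 53.2 and 19.6 FPKM in eWAT. Apoa1 was lowest in CON14L among the liver libraries, where Alb was also lowest. Apoa2, another protein of that particle, stood at 4462, 17491 and 18039 FPKM in liver and 37.5, 76.5 and 31.1 FPKM in eWAT. Apoc3, which slows the clearance of triglyceride-rich particles, stood at 1393, 2901 and 3554 FPKM in liver and 6.89, 14.2 and 4.21 FPKM in eWAT. The fatty acid carrier Fabp1 stood at 1917, 6577 and 7087 FPKM in liver and 22.2, 20.6 and 13 FPKM in eWAT. Apoa2, Apoc3 and Fabp1 shared the low value of CON14L. The major urinary proteins, pheromone carriers of mouse urine, were represented by Mup11 at 1380, 1755 and 1544 FPKM in liver and 6.17, 6.45 and 2.78 FPKM in eWAT, and by Mup17 and Mup18. Members of this family, like the Cyp2c and Ugt2b genes named here, have near-identical copies, and how fragments were split between copies is uncertain. In Mup11 the liver libraries were close to each other. Selenbp2, a selenium-binding protein, stood at 637, 390.5 and 338 FPKM in liver and 1.43, 2.09 and 0.344 FPKM in eWAT, and the cytochrome P450 Cyp2c54 at 136, 304 and 310.0 FPKM in liver and 0.419, 0.924 and 0.37 FPKM in eWAT. CON71W was the highest eWAT library in all of the 10 but Fabp1. Their fold changes ran from -8.48 for Hamp to -7.75 for Mup18, and the limma adjusted p from 7.76e-06 for Mup11 to 0.000105 for Hamp. The level in eWAT was 0.287% of the level in liver for Apoa1, 0.359% for Fabp1 and 0.499% for Alb. These shares are of the same order as the median of 0.522% to 1.14% over the plasma protein genes, and the part of liver RNA in them was not tested.

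**Figure D2:**
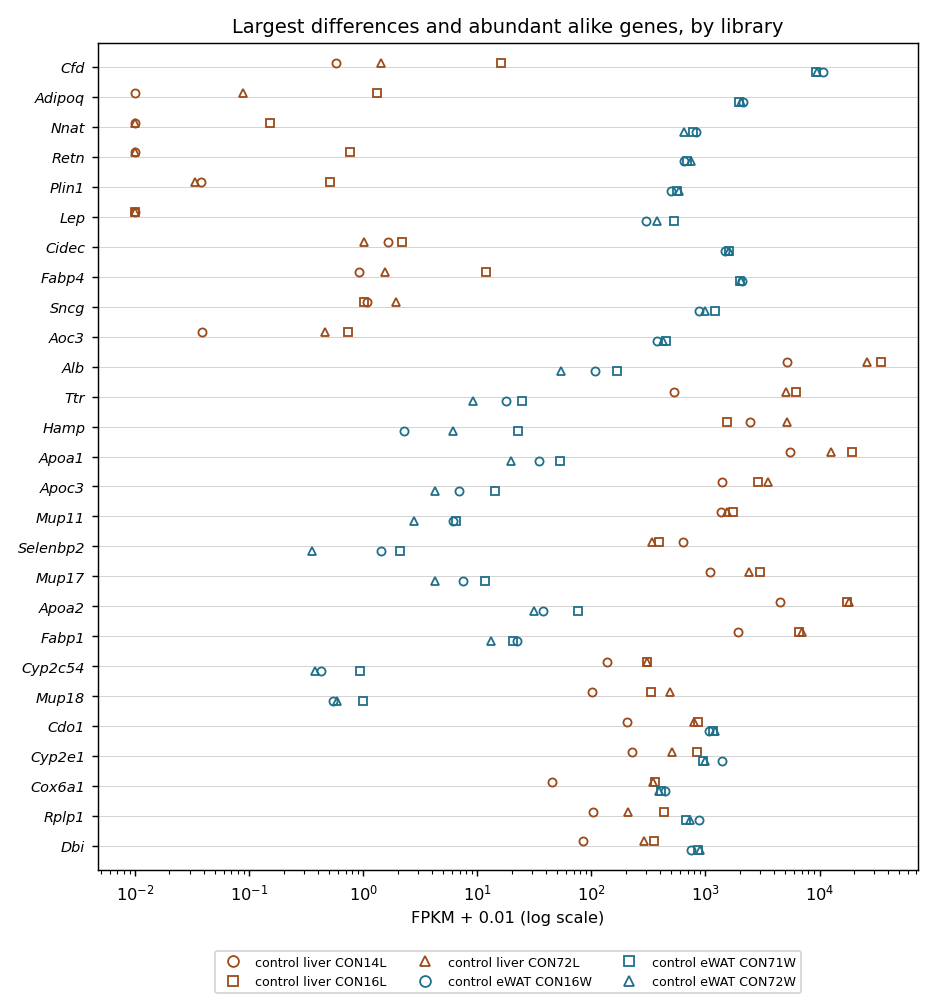
FPKM with 0.01 added (x axis, log scale) of the 10 largest rises, Alb, Ttr, the 10 largest falls and 5 abundant genes that were alike after scaling (y axis), in each of the 3 control liver libraries (brown) and 3 control eWAT libraries (blue). The tissues are apart in the upper 22 genes, CON16L is the highest liver library for most eWAT genes, and CON71W is the highest eWAT library for most liver genes.

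Promoter sequences were read for the genes with the strongest differences, because hepatocyte and adipocyte factors bind close to the start site of several of them. RefSeq promoters (250 bases before to 50 after the start, build GRCm38.p6) were found for 10106 of the 12719 genes tested, 258 of the 328 genes 16-fold higher in liver and 323 of the 433 genes 16-fold higher in eWAT. The 140 bases before the start site are printed 5′ to 3′ on the strand of the gene for 2 liver and 3 eWAT genes. Capitals mark matches, on either strand, to the letters searched, which were TATAAA for the core promoter box, TTNNGCAA and as a special case of it TTGCGCAA for C/EBP factors, AGGTCA for nuclear receptors, CAAAGTCCA for HNF4, CCAAT for the box of that name and GGGCGG for the GC box.
Alb, chr5:90460730-90460869, + strand: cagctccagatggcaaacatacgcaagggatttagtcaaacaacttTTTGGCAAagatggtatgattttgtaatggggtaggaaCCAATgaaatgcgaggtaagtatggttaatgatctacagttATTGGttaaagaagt
Fabp1, chr6:71199739-71199878, + strand: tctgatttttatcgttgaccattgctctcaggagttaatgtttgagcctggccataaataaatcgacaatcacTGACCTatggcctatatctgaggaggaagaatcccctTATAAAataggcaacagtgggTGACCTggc
Adipoq, chr16:23146396-23146535, + strand: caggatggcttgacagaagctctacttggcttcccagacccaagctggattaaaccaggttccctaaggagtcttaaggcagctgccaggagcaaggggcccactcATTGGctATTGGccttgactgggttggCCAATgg
Plin1, chr7:79732777-79732916, - strand: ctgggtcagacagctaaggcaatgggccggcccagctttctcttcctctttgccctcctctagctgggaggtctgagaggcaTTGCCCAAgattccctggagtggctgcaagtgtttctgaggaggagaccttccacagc
Lep, chr6:29060081-29060220, + strand: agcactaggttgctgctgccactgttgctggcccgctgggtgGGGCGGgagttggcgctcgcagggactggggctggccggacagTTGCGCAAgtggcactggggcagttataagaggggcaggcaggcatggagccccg
The RefSeq start lies 27 bases before the GENCODE M21 start of the gene in Alb, 52 bases inside the gene in Fabp1, 127 in Plin1 and 1 in Lep, and at it in Adipoq. The Alb promoter holds the C/EBP letters 94 bases before the start and CCAAT letters at 56 and 15 bases. The Fabp1 promoter holds the core promoter box at 30 bases and the nuclear receptor letters at 67 and 9 bases. Adipoq shows CCAAT letters in 3 places, Plin1 the C/EBP letters at 58 bases, and Lep the palindrome TTGCGCAA at 55 bases. Over the whole window around the start, the C/EBP letters TTNNGCAA were in 24% of the promoters of the liver genes, 9.91% of those of the eWAT genes and 8.77% of all promoters of genes tested. In the same order, the nuclear receptor letters were in 28.3%, 11.8% and 12.4%, the HNF4 letters in 3.49%, 0% and 0.495%, and TATAAA in 20.5%, 12.7% and 7.76%. The GC box was in 20.5%, 63.5% and 63.2%, and CCAAT in 43%, 34.4% and 38.5%. The median promoter was 49% G and C with 4 CpG in the liver genes and 60.7% with 15 CpG in the eWAT genes, against 60.7% with 20 CpG over all genes tested. These shares describe letters, not bound sites.

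The genes of the adipocyte droplet and of lipolysis formed the list with the highest median of those with at least 5 genes tested. Of 16 tested, 15 were higher in eWAT under both scalings, with a median log2 fold change of 6.02 against 1.38 over all genes as deposited. In liver, 12 of the 16 had a mean at the filter, so the filter set the direction of the others. Adipose triglyceride lipase (Pnpla2), which removes the first fatty acid, stood at 8.9, 27.7 and 9.27 FPKM in liver and 657, 606 and 552 FPKM in eWAT. Hormone-sensitive lipase (Lipe), which removes the next, stood at 1.11, 1.52 and 1.06 FPKM in liver and 208, 231 and 226 FPKM in eWAT, and monoglyceride lipase (Mgll), which ends the chain, at 10.5, 18.6 and 18.6 FPKM in liver and 233, 276 and 255 FPKM in eWAT. All 3 lipases were apart between the tissues in every library, with fold changes of 5.46, 7.01 and 3.999. The glycerol channel Aqp7 was at 0, 0.882 and 0 FPKM in liver and 70.9, 65.1 and 65.2 FPKM in eWAT, and Lgals12, a galectin of lipid droplets, at 0.0473, 0.031 and 0 FPKM in liver and 140.4, 130.2 and 137 FPKM in eWAT. Caveolar genes were among the most abundant: Cav1 stood at 1.18, 14.8 and 1.68 FPKM in liver and 1131, 1269 and 1186 FPKM in eWAT and Cavin1 at 0.658, 13.4 and 2.19 FPKM in liver and 463, 446 and 429.6 FPKM in eWAT. The exception was G0s2, an inhibitor of Pnpla2, at 205, 303 and 389 FPKM in liver and 338, 479.7 and 493 FPKM in eWAT, which neither scaling called.

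Of the adipokines, 11 (13 as deposited) of 15 tested were higher in eWAT under both scalings and 0 in liver. In liver, 8 of the 15 had a mean at the filter, so the filter set the direction of the others. Beside the hormones named above, the Wnt antagonist Sfrp5 stood at 0.138, 1.22 and 0.115 FPKM in liver and 29.2, 72.9 and 36.8 FPKM in eWAT. Other products counted as adipokines lay close between the tissues. Retinol-binding protein 4 (Rbp4) stood at 276, 1238 and 771 FPKM in liver and 310.3, 386 and 363 FPKM in eWAT, and chemerin (Rarres2) at 7.65, 61.1 and 60.2 FPKM in liver and 47.1, 50.2 and 54.9 FPKM in eWAT. In Rbp4 the groups overlapped only through CON14L, and neither gene was called in the FPKM as deposited. Interleukin 6 and tumour necrosis factor were under the filter in both tissues.

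Plasma protein genes of hepatocytes were higher in liver in 24 of 27 tested, with a median fold change of -6.30. The 3 exceptions were not called as deposited. Transferrin (Trf), the iron carrier of blood, stood at 318, 1584 and 1020 FPKM in liver and 1398, 1133 and 1181 FPKM in eWAT. Haptoglobin (Hp), which binds free haemoglobin, stood at 547, 2213 and 1631 FPKM in liver and 1794, 1831 and 1870 FPKM in eWAT. Rbp4, a carrier of vitamin A, was the other, and after scaling it was called higher in liver. In Trf and Hp, every eWAT library was within the range of the liver libraries. The fibrinogen chain Fgb stood at 167, 621 and 521 FPKM in liver and 3.04, 5.51 and 1.67 FPKM in eWAT, and vitamin D-binding protein (Gc) at 1179, 3513 and 3082 FPKM in liver and 11.9, 22.1 and 5.02 FPKM in eWAT. Of the apolipoprotein and lipoprotein assembly genes, 16 of 21 were higher in liver and 1 (3 as deposited) in eWAT. In eWAT, 24 of the 27 plasma protein genes and 17 of these 21 had a mean at the filter. The filter set the direction of the others. Apob, listed in this group and the scaffold of very low-density lipoprotein, stood at 55.7, 106 and 92.5 FPKM in liver and 0.918, 1.17 and 0.345 FPKM in eWAT. CON14L was lowest in liver for Fgb, Gc and Apob alike. Apoe stood at 1517, 9505 and 8012 FPKM in liver and 2775, 2653 and 2523 FPKM in eWAT, with CON14L below and the other liver libraries above all eWAT libraries. The exception in the other direction was Pltp, the phospholipid transfer protein, at 2.56, 4.13 and 6.31 FPKM in liver and 56.2, 42.8 and 55.4 FPKM in eWAT.

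Complement and coagulation genes were higher in liver in 29 of 44 and higher in eWAT in 6 (8 as deposited). The filter set the direction of some, since 37 of the 44 had an eWAT mean at it. Among the liver-high genes were the terminal components C8a at 158, 183 and 151 FPKM in liver and 0.875, 0.889 and 0.364 FPKM in eWAT and C9 at 107, 193 and 215 FPKM in liver and 0.976, 1.37 and 0.517 FPKM in eWAT, the lectin Mbl2 at 55.1, 151 and 126 FPKM in liver and 0.974, 2.24 and 0.497 FPKM in eWAT and the clotting factors, with prothrombin (F2) at 41.2, 134 and 122 FPKM in liver and 1.38, 2.89 and 0.824 FPKM in eWAT. eWAT held the C1q chains that macrophages make, with C1qa at 7.94, 15.9 and 13.7 FPKM in liver and 144, 98.9 and 139 FPKM in eWAT. It also held C7, a terminal component too, at 0.588, 3.05 and 0.694 FPKM in liver and 125, 66.7 and 69 FPKM in eWAT, tissue factor (F3) at 2.44, 2.62 and 1.25 FPKM in liver and 33, 25.1 and 20.6 FPKM in eWAT and Cfd. The central component C3 was close between the tissues, at 217, 299 and 289 FPKM in liver and 199.7, 131 and 194 FPKM in eWAT, and so were C1ra at 26.6, 45.2 and 38.2 FPKM in liver and 37.4, 31.3 and 36.4 FPKM in eWAT and C4b at 150.3, 127 and 150.0 FPKM in liver and 222, 220.0 and 201 FPKM in eWAT. For C3, C1ra and C4b the FPKM as deposited gave no call, and after scaling all 3 were called higher in liver. Of the hepatokines, 13 of 19 were higher in liver and 0 in eWAT (2 as deposited), with Fgf21, a fasting hormone, at 6.89, 11 and 5.06 FPKM in liver and 0.197, 0.416 and 0.126 FPKM in eWAT. The filter set the direction of some hepatokines, since 15 of the 19 had an eWAT mean at it. Angptl4, an inhibitor of lipoprotein lipase, stood at 37, 37 and 37.9 FPKM in liver and 169.5, 80.5 and 101.7 FPKM in eWAT and was called higher in eWAT as deposited only. Insulin-like growth factor 1 (Igf1), an endocrine product of liver, stood at 54.7, 75.7 and 83.8 FPKM in liver and 33.8, 29.3 and 30.3 FPKM in eWAT, and its liver mean was 2.29 times the eWAT mean.

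Genes of fatty acid synthesis were expressed in both tissues. Of 20 genes tested, 7 were higher in eWAT and 2 in liver under both scalings, and 12 and 2 as deposited. Over all genes the eWAT shares were 22.3% under both scalings and 62.4% as deposited, so the 12 lie near the share of all genes. Fatty acid synthase (Fasn) stood at 35.4, 35.7 and 60.8 FPKM in liver and 324, 596 and 673 FPKM in eWAT. Acetyl-CoA carboxylase 1 (Acaca), which supplies malonyl-CoA, stood at 3.69, 3.5 and 4.25 FPKM in liver and 43.2, 51.9 and 63.1 FPKM in eWAT, and stearoyl-CoA desaturase 1 (Scd1), which adds a double bond, at 238, 276 and 555 FPKM in liver and 4393, 4507 and 4864 FPKM in eWAT. The eWAT mean was 12.1 times the liver mean for Fasn, 13.8 times for Acaca and 12.9 times for Scd1, and CON72L was the highest liver library. Scd1 was the most abundant of the 3 in eWAT. The NADPH source glucose-6-phosphate dehydrogenase (G6pdx) stood at 1.19, 1.51 and 1.74 FPKM in liver and 70.6, 76.1 and 69.1 FPKM in eWAT, and Scd2 at 0.192, 2.24 and 0.36 FPKM in liver and 62.3, 88.5 and 94.5 FPKM in eWAT. The transcription factor ChREBP (Mlxipl) ran the other way, at 169, 101 and 154 FPKM in liver and 21.2, 25 and 30.9 FPKM in eWAT, and so did the desaturase Fads2, at 21.8, 29.4 and 27.6 FPKM in liver and 16.7, 10.6 and 8.43 FPKM in eWAT. SREBP-1 (Srebf1), the insulin-driven activator of the pathway, stood at 38.9, 40.5 and 66.8 FPKM in liver and 75.4, 78.8 and 94.2 FPKM in eWAT and was not called.

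Triglyceride assembly genes were higher in eWAT in 5 of 17 under both scalings and in 12 as deposited, and higher in liver in 3. Over all genes the eWAT shares were 22.3% under both scalings and 62.4% as deposited, and the liver share was 7.3%. The eWAT counts of the list lie near those shares. The last enzyme of the path, Dgat2, stood at 24.5, 68.7 and 55.8 FPKM in liver and 566, 837 and 1050 FPKM in eWAT and its unrelated counterpart Dgat1 at 6.05, 4.92 and 5.79 FPKM in liver and 81.4, 76.5 and 83.9 FPKM in eWAT. Both enzymes were higher in eWAT in every library. Gpat3, which acylates glycerol 3-phosphate, stood at 0.299, 0.761 and 0.655 FPKM in liver and 27.9, 30.1 and 35.8 FPKM in eWAT, and Gpat2 at 2.64, 1.83 and 3.08 FPKM in liver and 0.166, 0.126 and 0.0686 FPKM in eWAT. Phosphoenolpyruvate carboxykinase (Pck1), used for glucose in liver and for glycerol in fat, stood at 839.6, 1079 and 879 FPKM in liver and 723, 542 and 535 FPKM in eWAT, a difference of -0.64 ± 0.38 that was called only after scaling.

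Among genes of fatty acid uptake and binding, 6 (9 as deposited) were higher in eWAT and 5 in liver of 19. Over all genes, 22.3% were higher in eWAT and 7.3% in liver under both scalings, and 62.4% were higher in eWAT as deposited. Lipoprotein lipase (Lpl), which frees fatty acids from particles in the blood, stood at 1.08, 46.8 and 1.39 FPKM in liver and 847, 1132 and 1080 FPKM in eWAT, and its anchor on capillaries Gpihbp1 at 3.23, 5.12 and 1.07 FPKM in liver and 72.3, 69.6 and 69.3 FPKM in eWAT. The fatty acid translocase Cd36 stood at 0.548, 31.1 and 2.74 FPKM in liver and 1207, 1196 and 1164 FPKM in eWAT. CON16L, the library with muscle RNA, held over 10 times the Lpl and Cd36 of the other liver libraries, and the part of muscle in these values was not tested. On the side of liver, the transport proteins Slc27a2 and Slc27a5, which also activate very long chain fatty and bile acids, stood at 228, 254 and 228 FPKM in liver and 4.14, 2.67 and 0.817 FPKM in eWAT and at 46.7, 111 and 111 FPKM in liver and 1.18, 2.3 and 0.666 FPKM in eWAT.

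Of 28 fatty acid oxidation genes, 0 were higher in eWAT and 6 in liver under both scalings, beside 22.3% and 7.3% of all genes. The eWAT calls depended on the scaling. As deposited 11 of 28 were higher in eWAT and 6 in liver, and after scaling 0 and 12. The 6 that were liver-high under both included Bdh1, which makes the ketone body hydroxybutyrate, at 7.32, 25.6 and 16.8 FPKM in liver and 0.305, 0.407 and 0.294 FPKM in eWAT. The ω-hydroxylases Cyp4a10 and Cyp4a14 were liver-high too, with Cyp4a10 at 5.41, 45.1 and 32.5 FPKM in liver and 0.414, 0.375 and 0.057 FPKM in eWAT. The enzyme that burns ketone bodies, Oxct1, stood at 0.46, 32.6 and 0.413 FPKM in liver and 75, 75.6 and 74.7 FPKM in eWAT and was called higher in eWAT as deposited only. Its value in CON16L was far above those of the other liver libraries. The gate of mitochondrial uptake, Cpt1a, lay close between the tissues, at 12.5, 14.7 and 11.7 FPKM in liver and 15, 13.8 and 13 FPKM in eWAT, and was called higher in liver after scaling only. The count higher in eWAT as deposited was 5 without CON72L and 16 without CON16L.

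Of 19 cholesterol genes tested, 1 was higher in eWAT and 1 in liver under both scalings, with a median of -0.14. The counts as deposited were 4 and 1, and after scaling 1 and 13, so that no direction held for the list. Without CON14L the liver count as deposited was 5. Of 25 bile acid genes, 22 were higher in liver and 1 in eWAT (3 as deposited). In eWAT, 17 of the 25 had a mean at the filter, so the filter set the direction of the others. The first enzyme Cyp7a1 stood at 3.02, 9.42 and 13.7 FPKM in liver and 0.209, 0.19 and 0.0288 FPKM in eWAT, the sterol hydroxylase Cyp8b1 at 35.2, 67.2 and 72.6 FPKM in liver and 0.8, 1.22 and 0.832 FPKM in eWAT and the export pump Abcb11 at 181, 91.2 and 116 FPKM in liver and 0.497, 0.513 and 0.315 FPKM in eWAT. The bile acid receptor FXR (Nr1h4) stood at 100.3, 66.2 and 98.6 FPKM in liver and 0.677, 0.974 and 1.38 FPKM in eWAT. The 3 genes higher in eWAT as deposited were Klb, Cyp39a1 and Hsd17b4, and of these Klb, the β-Klotho co-receptor of FGF21, at 1.38, 1.85 and 1.08 FPKM in liver and 13.3, 17.3 and 16.4 FPKM in eWAT, was called under both scalings.

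Of the gluconeogenesis and glycogen genes, 10 of 20 were higher in liver and 4 (5 as deposited) in eWAT. Under both scalings 7.3% of all genes were higher in liver and 22.3% in eWAT, and the 4 lie near the latter share. Glucose-6-phosphatase (G6pc), which releases free glucose, stood at 335, 151 and 273 FPKM in liver and 1.37, 3.5 and 1.17 FPKM in eWAT, and the fructose bisphosphatase Fbp1 at 40.4, 43.1 and 61.8 FPKM in liver and 4.69, 4.85 and 1.38 FPKM in eWAT. Pyruvate carboxylase (Pcx) was higher in eWAT, at 22.1, 35.5 and 36.8 FPKM in liver and 249.1, 264 and 301 FPKM in eWAT. The glycolysis list had 16 of 24 higher in eWAT as deposited and 7 under both scalings, and 3 higher in liver by either rule. Its eWAT counts lie near the shares of all genes, 62.4% as deposited and 22.3% under both scalings. The regulator Pfkfb3, which makes the activator of phosphofructokinase, stood at 1.37, 1.38 and 1.3 FPKM in liver and 129.9, 124 and 138 FPKM in eWAT and lactate dehydrogenase A (Ldha) at 16.2, 68 and 21.5 FPKM in liver and 222, 253 and 268 FPKM in eWAT. The lactate dehydrogenase of heart and slow muscle, Ldhb, was not called, at 1.75, 117 and 1.25 FPKM in liver and 51.6, 51.1 and 48.4 FPKM in eWAT, with CON16L above every other library.

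Most genes of the urea cycle and amino acid catabolism lists had more mRNA in liver under both scalings, while 0 of the branched-chain genes did. Of the urea cycle list 10 of 13 and of the amino acid catabolism list 23 of 27 were higher in liver (2 and 2 were higher in eWAT as deposited, and 1 and 1 under both scalings), with medians of -3.61 and -5.17. In eWAT, 10 of the 13 and 21 of the 27 had a mean at the filter, so the filter set the direction of the others. Carbamoyl phosphate synthetase (Cps1), the entry of the urea cycle, stood at 93.9, 128 and 131 FPKM in liver and 1.57, 2.3 and 0.909 FPKM in eWAT and arginase (Arg1), its last step, at 253, 825 and 869.9 FPKM in liver and 2.52, 3.41 and 1.65 FPKM in eWAT. In both, the eWAT libraries stood in the order of the plasma proteins, with CON71W highest and CON72W lowest. Tyrosine aminotransferase (Tat) stood at 353, 400.4 and 472 FPKM in liver and 2.88, 4.77 and 1.9 FPKM in eWAT. Glutamine synthetase (Glul), which stores ammonia, was higher in eWAT as deposited, at 35.3, 98.1 and 70.9 FPKM in liver and 389, 321 and 218 FPKM in eWAT, with a fold change of 2.26 ± 0.46 that was not called after scaling (0.67). Of the branched-chain amino acid genes, 14 of 23 tested were higher in eWAT and 0 in liver as deposited, and 5 and 0 under both scalings, beside 62.4% and 22.3% of all genes higher in eWAT by these rules. Its median was 1.48, near that of all genes. The aminotransferase Bcat2, a step of which hepatocytes are known to have little, stood at 11.5, 12.3 and 10.6 FPKM in liver and 52.3, 45.3 and 46.7 FPKM in eWAT and was called as deposited only, and Pccb, a subunit of propionyl-CoA carboxylase, at 6.95, 16.8 and 10.5 FPKM in liver and 82.6, 88.2 and 79.9 FPKM in eWAT.

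Of the cytochrome P450 and phase II genes, 28 of 37 were higher in liver and 1 (4 as deposited) in eWAT. The filter set the direction of some, since 32 of the 37 had an eWAT mean at it and 36 a liver mean. Cyp1a2, which clears caffeine, stood at 85.8, 472 and 379.6 FPKM in liver and 1.77, 2 and 0.776 FPKM in eWAT, Cyp2d10 at 95.5, 436 and 459 FPKM in liver and 2.08, 3.12 and 0.985 FPKM in eWAT and the glucuronidating enzyme Ugt2b5 at 197, 361 and 419 FPKM in liver and 2.05, 2.49 and 1.1 FPKM in eWAT. CON14L was the lowest liver library in all 3. Cyp2e1, the ethanol-oxidising form, was not called, at 229, 849 and 508 FPKM in liver and 1402, 942 and 990.2 FPKM in eWAT. Cyp1b1, known from cells outside the liver, was higher in eWAT at 0.157, 0.471 and 0.299 FPKM in liver and 16.8, 8.94 and 12.2 FPKM in eWAT. The P450 reductase Por, which passes electrons to all of them, stood at 14.3, 32.9 and 23.3 FPKM in liver and 127, 121 and 116 FPKM in eWAT and was called in the FPKM as deposited only.

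**Figure D3:**
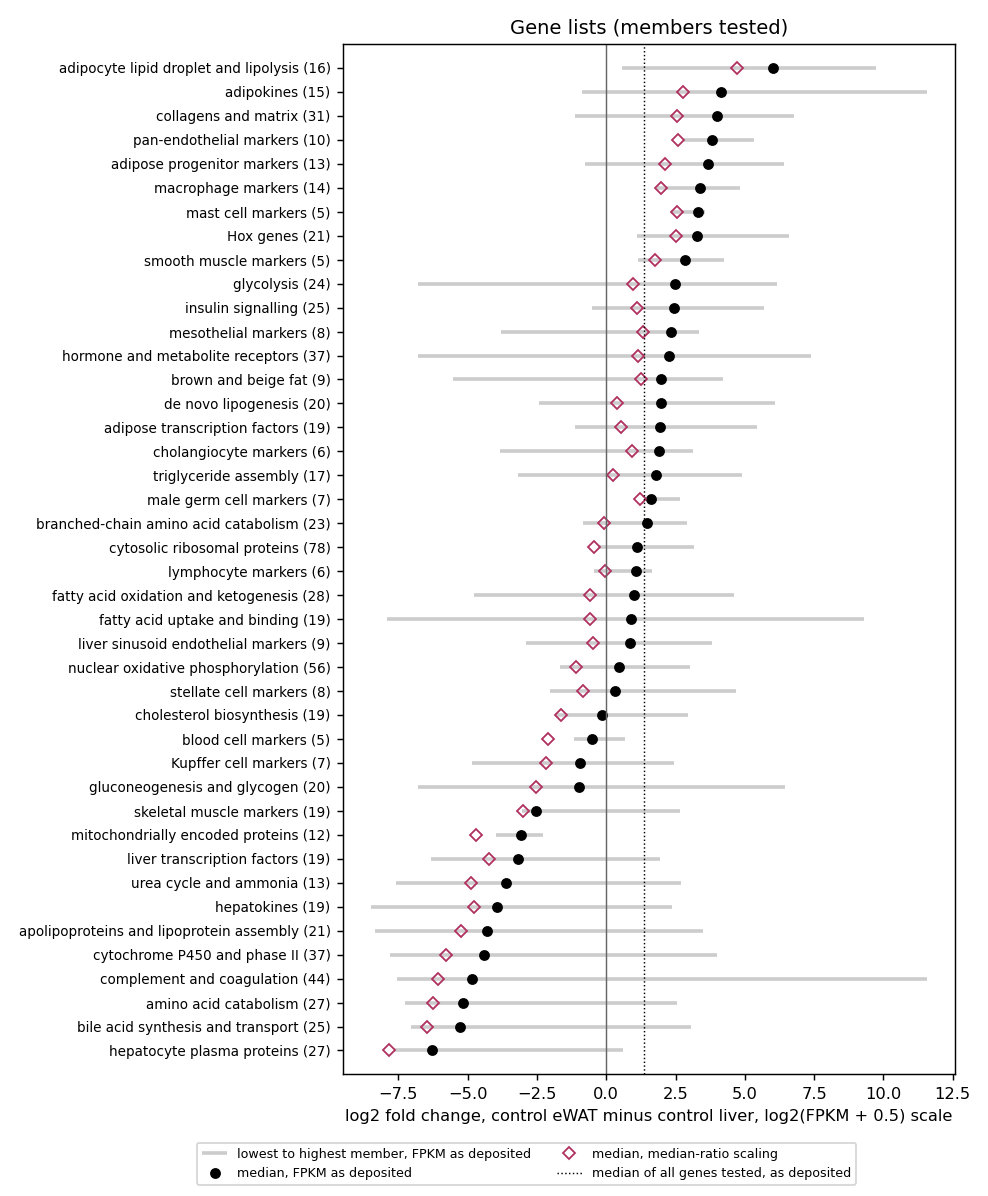
Median log2 fold change (x axis, control eWAT minus control liver on the log2(FPKM + 0.5) scale) of the gene lists with at least 5 members tested (y axis, members tested in brackets), from the FPKM as deposited (black circles) and after median-ratio scaling (open diamonds), with grey bars from the lowest to the highest member. The lipid droplet list lies highest, at 6.02 and 4.72, the plasma protein list lowest, at -6.30 and -7.83, and the medians lie lower after scaling than as deposited.

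In a number of families, the mRNA of different members was higher in the 2 tissues. In 27 pairs with a form known from liver listed first and one known from fat or many tissues second, both genes were tested in 23, and in 10 of them the first was higher in liver and the second in eWAT under both scalings (14 as deposited). The share of the first gene in the summed FPKM of the pair does not depend on the scaling of a library. It was higher in every liver library than in every eWAT library in 21 of 23 pairs and lower in 1, the glutathione transferases Gsta3 and Gstp1. The pairs were picked and ordered by what is known of their forms, so these counts describe the pairs and test nothing. The fatty acid carriers were almost exclusive, with Fabp1 taking 99.95, 99.8 and 99.98% in liver and 1.05, 1.01 and 0.63% in eWAT of Fabp1 and Fabp4. For the glucose transporters, Slc2a2 (GLUT2), which lets glucose leave hepatocytes, took 99.1, 66.9 and 98.8% in liver and 0.825, 0.908 and 0.361% in eWAT of its sum with the insulin-responsive Slc2a4 (GLUT4). For pyruvate kinase, Pklr took 92.8, 30.5 and 95.2% in liver and 2.95, 2.42 and 1.25% in eWAT beside Pkm, and for the lipases Lipc took 94.7, 48.2 and 97% in liver and 0.0513, 0.0596 and 0.044% in eWAT beside Lpl. In these pairs CON16L was the lowest liver library, and the second genes Slc2a4, Pkm and Lpl are also expressed in muscle; the part of muscle RNA in them was not tested. Methionine adenosyltransferase showed the same order with CON16L near the other liver libraries, with Mat1a at 93, 95.4 and 95.7% in liver and 1.9, 2.65 and 0.974% in eWAT of its sum with Mat2a. For the glycerol channels, Aqp9 took 100, 98 and 100% in liver and 2.44, 2.73 and 1.17% in eWAT beside Aqp7. The adiponectin receptors overlapped between the tissues, with Adipor2 at 79.3, 67.8 and 77% in liver and 72.1, 72.8 and 72.7% in eWAT of its sum with Adipor1. The desaturases were apart by little, with Scd1 at 99.9, 99.2 and 99.9% in liver and 98.6, 98.1 and 98.1% in eWAT beside Scd2.

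**Figure D4:**
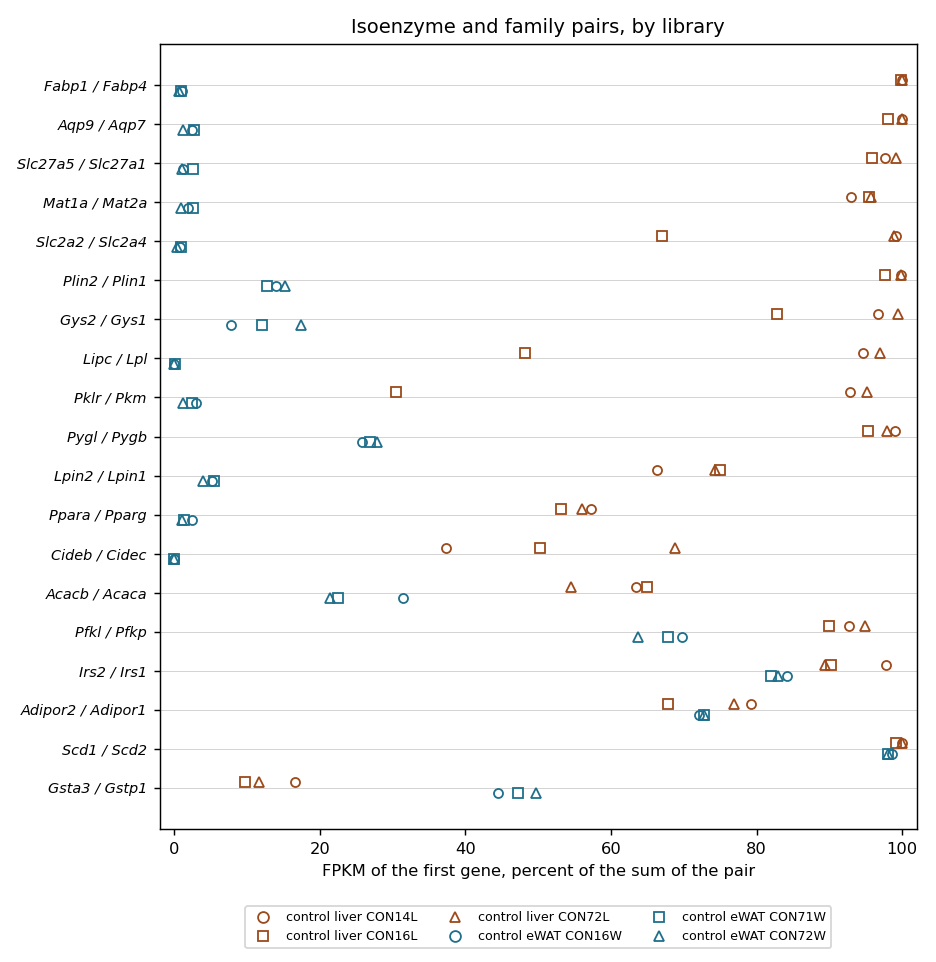
Share of the first gene in the summed FPKM of a pair (x axis, percent) for 19 of the pairs with both genes tested (y axis), in each of the 3 control liver libraries (brown) and the 3 control eWAT libraries (blue). Fabp1 takes 99.8% or more in liver and at most 1.05% in eWAT of its pair, and the squares of CON16L lie well to the left of the other liver libraries for Pklr, Lipc and Slc2a2.

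Of the liver transcription factors 14 of 19 were higher in liver and 0 in eWAT (1 as deposited), with a median of -3.18. In eWAT, 9 of the 19 had a mean at the filter, so the filter set the direction of the others. Hnf4a stood at 76.9, 62.5 and 70.9 FPKM in liver and 2.78, 1.95 and 0.386 FPKM in eWAT. Foxa2, which opens chromatin at liver enhancers, stood at 22.8, 5.84 and 6.41 FPKM in liver and 0.0263, 0.195 and 0.101 FPKM in eWAT, and Foxa3 at 10.4, 11.7 and 10.03 FPKM in liver and 0, 0.0324 and 0.0295 FPKM in eWAT. The xenobiotic receptor PXR (Nr1i2) stood at 25.8, 30.5 and 29.5 FPKM in liver and 0.147, 0.207 and 0.0706 FPKM in eWAT and Creb3l3, a factor of the fasting response, at 75, 45.8 and 56.7 FPKM in liver and 0.289, 0.656 and 0.438 FPKM in eWAT. CON14L was not low for Hnf4a and was the highest liver library for Foxa2 and Creb3l3, unlike for the secreted proteins Alb and Ttr. In eWAT, Hnf4a was 2.43% of the liver level. Of the adipose factors, 8 of 19 were higher in eWAT and 0 in liver under both scalings. As deposited 12 were higher in eWAT, a share near the 62.4% of all genes, and after scaling 2 were higher in liver. The filter set the direction of some adipose factors, since 12 of the 19 had a liver mean at it. PPARγ (Pparg) stood at 1.69, 3.06 and 2.26 FPKM in liver and 102.1, 123 and 118 FPKM in eWAT, while its relative Ppara, the fasting factor of liver, stood at 2.26, 3.48 and 2.88 FPKM in liver and 2.55, 1.63 and 1.33 FPKM in eWAT and was not called as deposited. The early B cell factor Ebf1, which helps to fix the adipocyte fate, stood at 0.0269, 0.256 and 0.0672 FPKM in liver and 25.5, 26.6 and 24.7 FPKM in eWAT. Cebpa, needed in both tissues, stood at 86.7, 88.1 and 78.8 FPKM in liver and 317, 326 and 342 FPKM in eWAT, a change of 1.95 ± 0.26 that was called as deposited and not after scaling (0.36).

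Hox genes, which keep a record of the position of a cell along the body axis, passed the filter mostly through their level in eWAT. Of 39 listed, 21 were tested, 21 were higher in eWAT as deposited and 18 under both scalings. In liver alone, 2 of the 21 had a mean at the filter of 0.5 FPKM, so the filter set the direction of the others and their counts are a description. Hoxc8 was the highest, at 0, 0.0304 and 0 FPKM in liver and 46.2, 48.4 and 51.6 FPKM in eWAT. Hoxc6 stood at 0, 0.714 and 0 FPKM in liver and 20.6, 19.9 and 25 FPKM in eWAT, Hoxa7 at 0, 0.389 and 0 FPKM in liver and 12.1, 9.5 and 10.6 FPKM in eWAT, Hoxd8 at 0.0478, 0.125 and 0 FPKM in liver and 12.9, 12.6 and 10.7 FPKM in eWAT and Hoxb6 at 0.2, 0 and 0.111 FPKM in liver and 10.4, 7.42 and 8.63 FPKM in eWAT. Hoxb7, Hoxb8, Hoxb9, Hoxc9 and Hoxd4 had 0 fragments in all liver libraries, and Hoxb7 was at least 101-fold higher in eWAT. CON16L was the highest of the liver libraries for 11 of the 21. All groups 9 and below were represented in the tested genes except group 1, and no tested gene came from groups 10 to 13.

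Of 37 receptors for hormones and metabolites tested, 20 were higher in eWAT and 4 in liver under both scalings, and 28 and 4 as deposited. Of all genes, 22.3% were higher in eWAT and 7.3% in liver under both scalings, and 62.4% and 7.31% as deposited. In liver, 25 of the 37 had a mean at the filter. The liver-high receptors were those for glucagon (Gcgr), at 295, 139 and 212 FPKM in liver and 1.12, 1.59 and 1.4 FPKM in eWAT, for α1-adrenergic signals (Adra1b), at 46.6, 28 and 40.1 FPKM in liver and 1.42, 1.05 and 0.977 FPKM in eWAT, for epidermal growth factor (Egfr), at 52.1, 27.4 and 25.1 FPKM in liver and 11.3, 10.3 and 10.1 FPKM in eWAT, and for the bile acid hormone FGF15 (Fgfr4), at 25.6, 10 and 17.8 FPKM in liver and 3.27, 2.46 and 0.407 FPKM in eWAT. In eWAT the β3-adrenergic receptor Adrb3, which starts lipolysis, stood at 22.3, 7.9 and 11.2 FPKM in liver and 331, 324 and 355 FPKM in eWAT. Adrb3 was not absent from liver, and its liver values differed by a factor of over 2. The natriuretic clearance receptor Npr3 stood at 0.126, 0.403 and 0.0931 FPKM in liver and 102.5, 146 and 103 FPKM in eWAT. The receptors for thyrotropin (Tshr), lactate (Hcar1) and the gut hormone GIP (Gipr) had no fragment in any liver library and stood at 44, 48 and 48 FPKM, 40.4, 28.2 and 23.6 FPKM and 5.64, 4.62 and 5.06 FPKM in eWAT, at least 2656, 957 and 168-fold higher. The receptor of long-chain fatty acids Ffar4 stood at 0.374, 0.246 and 0 FPKM in liver and 26.3, 29.3 and 29.8 FPKM in eWAT. In these 5 receptors the liver level was at or near 0. The growth hormone receptor (Ghr), known for its role in liver, was higher in eWAT at 20.3, 32.9 and 30.4 FPKM in liver and 206, 201 and 217 FPKM in eWAT. The receptor for glucocorticoids (Nr3c1), at 5, 7.32 and 4.54 FPKM in liver and 36.6, 37.5 and 35.4 FPKM in eWAT, was higher in eWAT too.

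Insulin signalling genes were higher in eWAT in 13 of 25 under both scalings, 22 as deposited, and higher in liver in 0. Beside these counts stand 22.3% of all genes under both scalings and 62.4% as deposited. The filter set the direction of some, since 22 of the 25 had a liver mean at it. The receptor itself (Insr) was not called, at 6.62, 6.57 and 6.47 FPKM in liver and 13, 13.9 and 12.5 FPKM in eWAT. Its substrates were: Irs1 stood at 0.0573, 0.423 and 0.227 FPKM in liver and 4.55, 3.23 and 3.86 FPKM in eWAT, Irs2 at 2.53, 3.9 and 1.9 FPKM in liver and 24.2, 14.8 and 18.8 FPKM in eWAT and Irs3, a form of rodent fat, at 0.168, 0 and 0.187 FPKM in liver and 33.4, 29.2 and 30.8 FPKM in eWAT. All 3 substrates were apart between the tissues in every library. The kinase Akt2 stood at 7.35, 9.73 and 5.9 FPKM in liver and 52.3, 50.5 and 58.9 FPKM in eWAT, the regulatory subunit Pik3r1 at 3.47, 3.16 and 3.3 FPKM in liver and 45.6, 50.4 and 42.8 FPKM in eWAT and Pde3b, which lowers cAMP after insulin, at 5.38, 6.78 and 6.51 FPKM in liver and 55.9, 53.1 and 46.5 FPKM in eWAT. Grb14, an inhibitor of the receptor, was the lowest of the list, at 4.78, 8.55 and 7.61 FPKM in liver and 5.15, 4.48 and 4.09 FPKM in eWAT.

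**Figure D5:**
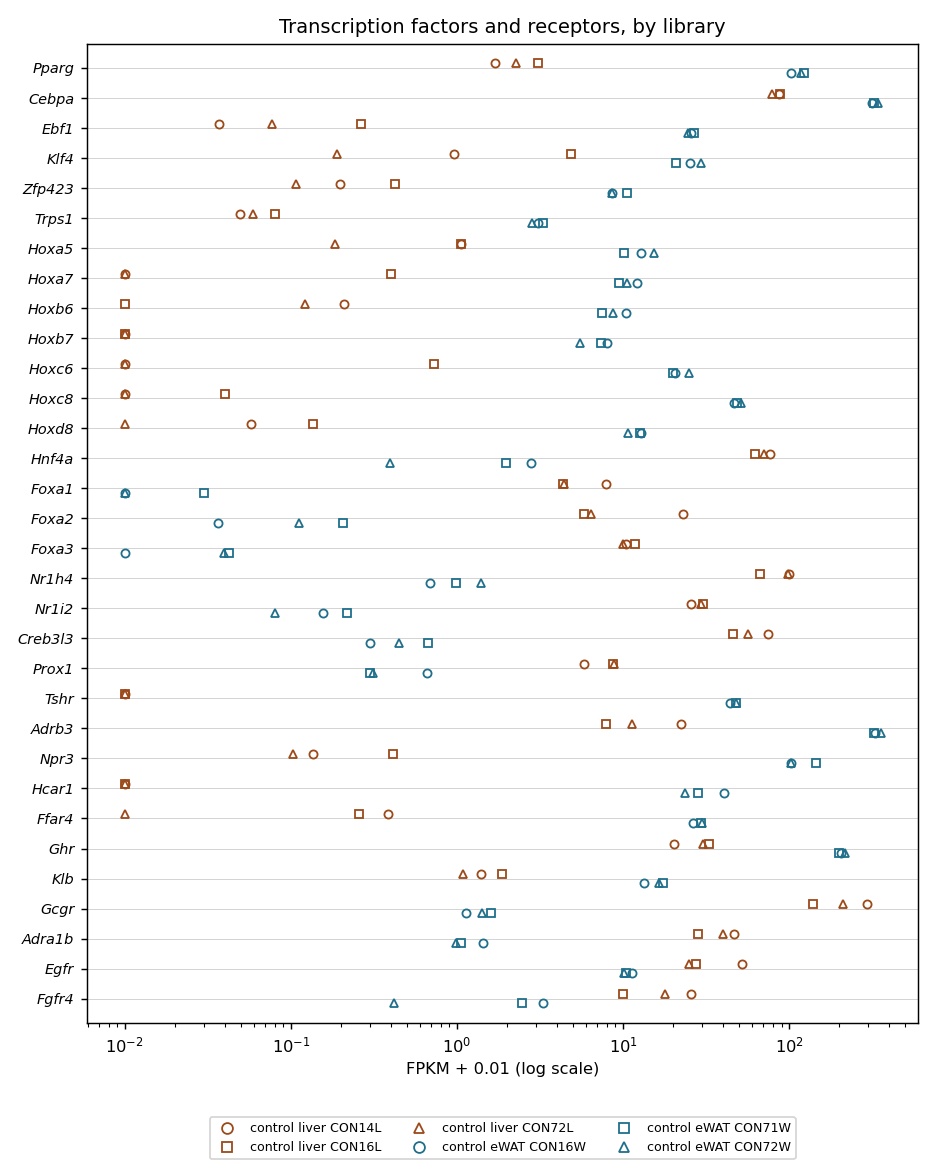
FPKM with 0.01 added (x axis, log scale) of 32 transcription factors and receptors (y axis) in each of the 3 control liver libraries (brown) and 3 control eWAT libraries (blue). Pparg, Ebf1 and the Hox genes lie to the right in eWAT and Hnf4a, the Foxa genes and Gcgr to the right in liver, with Tshr, Hcar1 and Hoxb7 at 0 in every liver library.

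Genes of brown and beige fat were mixed. Of 9 tested of 15, 5 were higher in eWAT and 1 in liver. Both rules gave these counts, beside 22.3% of all genes higher in eWAT under both scalings and 62.4% as deposited. Ucp1, the uncoupling protein that defines brown fat, was under the filter. Ucp2 stood at 2.31, 3.73 and 2.64 FPKM in liver and 24.9, 19.6 and 20.2 FPKM in eWAT and Cidea at 0, 0.617 and 0 FPKM in liver and 2.91, 2.66 and 3.29 FPKM in eWAT. Elovl3, a fatty acid elongase of brown fat that liver also makes, was the gene higher in liver, at 26.9, 57 and 47.2 FPKM in liver and 0.726, 0.468 and 0.152 FPKM in eWAT. Cox7a1 and Cox8b were highest in CON16L, at 1.72, 46.3 and 1.84 FPKM and 0.364, 79.8 and 0 FPKM in the liver libraries, and these are muscle forms of the respiratory chain.

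Lists of matrix, vessel, immune and stromal cell genes were counted in the same way, beside eWAT shares over all genes of 22.3% under both scalings and 62.4% as deposited. Of the collagen and matrix genes 27 (30 as deposited) of 31 were higher in eWAT and 1 in liver. Sparc, a collagen-binding protein, stood at 3.01, 19.6 and 5.02 FPKM in liver and 772, 891 and 747 FPKM in eWAT, the basement membrane collagen Col4a1 at 1.81, 5.27 and 1.96 FPKM in liver and 171, 191 and 197 FPKM in eWAT and the fibre collagen Col3a1 at 3.09, 7.08 and 4.89 FPKM in liver and 105, 83.2 and 116 FPKM in eWAT. The gene higher in liver was Col18a1, the source of endostatin, at 80.4, 73.5 and 88.6 FPKM in liver and 32.1, 41.7 and 36.9 FPKM in eWAT. All 10 pan-endothelial markers were higher in eWAT, with Pecam1 at 1.24, 4.9 and 1.56 FPKM in liver and 67.6, 62.7 and 66.7 FPKM in eWAT, and of 14 macrophage markers 12 were under both scalings and 14 as deposited, with Lyz2 at 10.7, 23 and 12.2 FPKM in liver and 446, 286 and 399 FPKM in eWAT and Cd68 at 2.09, 3.42 and 3.74 FPKM in liver and 32.9, 29.7 and 31.6 FPKM in eWAT. Adipose progenitor markers were higher in eWAT in 11 (12 as deposited) of 13, with Cd34 at 0.0899, 1.86 and 0.3 FPKM in liver and 23.4, 19.5 and 22.6 FPKM in eWAT. In liver, 28 of the 31 matrix genes and 9 of the 10 pan-endothelial markers had a mean at the filter. So had 10 of the 14 macrophage and 10 of the 13 progenitor markers, and the filter set the direction of the others. Smooth muscle markers were higher in eWAT in 3 (4 as deposited) of 5, with Acta2 at 2.21, 17.9 and 12.7 FPKM in liver and 176, 144 and 181 FPKM in eWAT. Mesothelial markers gave calls in both directions, with 4 (6 as deposited) of 8 higher in eWAT and 2 higher in liver. Among them Upk3b stood at 0.52, 1.78 and 0.186 FPKM in liver and 12.9, 7.16 and 16.4 FPKM in eWAT. Summed over the 10 mesothelial genes listed, liver held 105, 273 and 217 FPKM and eWAT 75, 42.3 and 53.4 FPKM. Of 5 mast cell markers tested, among them Cma1 at 0, 0.158 and 0 FPKM in liver and 6.58, 3.33 and 7.17 FPKM in eWAT, 0 had a liver mean at the filter, so that the filter set their direction. The lymphocyte list held 6 tested genes and 0 calls under both scalings (4 higher in eWAT as deposited).

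Lists for the non-hepatocyte cells of liver gave calls in both directions. Over all genes, 22.3% were higher in eWAT and 7.3% in liver under both scalings, and 62.4% were higher in eWAT as deposited. The Kupffer cell list had 3 of 7 higher in liver and 1 (2 as deposited) in eWAT, with the lectin Clec4f at 28.6, 13.5 and 18 FPKM in liver and 0.101, 0.24 and 0.219 FPKM in eWAT. Folr2, also listed for Kupffer cells, had 0 fragments in liver and stood at 2.62, 1.54 and 2.6 FPKM in eWAT. Of the sinusoid endothelial list 3 of 9 were higher in liver, with the scavenger receptor Stab2 at 4.46, 2.68 and 3 FPKM in liver and 0.271, 0.264 and 0.172 FPKM in eWAT, and 1, the hyaluronan receptor Lyve1 at 0.135, 2.18 and 0.412 FPKM in liver and 20.7, 10.3 and 18.1 FPKM in eWAT, was higher in eWAT (4 as deposited). Of the stellate cell list 2 of 8 were higher in liver, among them Lrat, which stores vitamin A, at 1.22, 1.19 and 1.08 FPKM in liver and 0.152, 0.136 and 0.112 FPKM in eWAT. In the same list 1 was higher in eWAT (3 as deposited), the pericyte gene Rgs5 at 2.16, 22.3 and 3.05 FPKM in liver and 164, 138 and 157 FPKM in eWAT. The cholangiocyte list had 2 (5 as deposited) of 6 higher in eWAT and 1 in liver, with Krt19 at 0.989, 1.39 and 1.36 FPKM in liver and 13.9, 8.47 and 7.13 FPKM in eWAT and Spp1 at 19.3, 35.4 and 45.2 FPKM in liver and 2.61, 1.6 and 1.2 FPKM in eWAT. Markers of blood cells and of epididymal epithelium gave 0 calls of 5 and 1 tested. Of the skeletal muscle markers 1 of 19, Neb at 1.7, 11.1 and 1.29 FPKM in liver and 0.103, 0.116 and 0.135 FPKM in eWAT, was called higher in liver, and without CON16L 3 were called higher in eWAT. Of the male germ cell markers 1 of 7, Spata18 at 0, 0 and 0 FPKM in liver and 1.57, 1.41 and 0.285 FPKM in eWAT, was called higher in eWAT (6 as deposited without CON72W). None of the 7, that is 0, had a liver mean at the filter, so that the filter set their direction. Among the pancreatic markers 0 of 1 was called (1 as deposited).

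Mitochondrially encoded genes were higher in liver in 12 of 12 under both scalings, with a median of -3.09. Cytochrome c oxidase subunit 1 (mt-Co1) stood at 171236, 69020 and 114078 FPKM in liver and 11451, 11662 and 11574 FPKM in eWAT. The nuclear genes of the same complexes did not share this in the FPKM as deposited, where 12 of 56 were higher in eWAT and 2 in liver, whereas after scaling 0 and 23 were. Cytosolic ribosomal protein genes changed in the same manner, from 35 of 78 eWAT-high and 0 liver-high to 2 and 13. Under both scalings 0 of the 56 were higher in eWAT and 2 in liver, and 2 of the 78 were higher in eWAT and 0 in liver. No direction thus held for most genes of either list. The counts as deposited also moved with single libraries. Of the oxidative phosphorylation genes 4 were higher in eWAT without CON72L and 24 without CON16L, and 14 were higher in liver without CON14L. Of the ribosomal protein genes 20 were higher in eWAT without CON16W and 54 without CON16L. Summed over the 13 mitochondrial genes listed, the liver libraries differed by a factor of over 2 among themselves, and the eWAT libraries were within 30664 to 33643 FPKM.

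The 5 most abundant genes that were alike after scaling included enzymes of both tissues. Cysteine dioxygenase (Cdo1), which breaks down cysteine, stood at 205, 860.4 and 786 FPKM in liver and 1069, 1160 and 1209 FPKM in eWAT, with a scaled change of -0.45. Cyp2e1, given above, had a scaled change of -0.35. The respiratory chain subunit Cox6a1 stood at 45.6, 360.1 and 349.6 FPKM in liver and 438, 409 and 394 FPKM in eWAT, the ribosomal protein Rplp1 at 103, 433 and 210.1 FPKM in liver and 869, 680.2 and 736 FPKM in eWAT and the acyl-CoA carrier Dbi at 85.1, 354 and 290.1 FPKM in liver and 744, 859 and 896 FPKM in eWAT. In each of the 5, CON14L was below CON16L and CON72L. As deposited, Rplp1 and Dbi were called higher in eWAT (adjusted p of 0.0195 and 0.0168), and the others were not.

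The same contrast in the mice on the high-salt diet used 6 other libraries. Of the control calls, 8723 were tested there, 7704 were called in the same direction and 0 in the opposite one. Of all 13429 genes tested there, 8166 were called higher in eWAT and 897 higher in liver as deposited. After median-ratio scaling, 4110 control calls were called in the same direction. Of the 16-fold calls 757 of 761 were called in the same direction at 2-fold. Across 12407 genes the fold changes of the diets correlated at r = 0.942, which is a correlation across genes and not across mice. The level of hepatocyte genes in eWAT was lower in these mice. The 25 plasma protein genes stood at a median of 0.0782%, 0.0708% and 0.0779% of the control liver level in the high-salt eWAT libraries, below the lowest control eWAT library at 0.522%. Alb stood at 34480, 38081 and 14646 FPKM in liver and 7.85, 3.3 and 5.87 FPKM in eWAT under high salt, and the eWAT level was 0.0195% of liver there and 0.499% in controls. The tissue difference of Alb was -12.16 under high salt and -7.39 in controls, and that of Apoa2 -12.90 and -7.95. The interaction of tissue and diet was -4.77 ± 1.03 for Alb (limma adjusted p of 0.15) and -4.95 ± 0.89 for Apoa2 (adjusted p of 0.0903). Over all 13252 genes limma found 0 with an adjusted p under 0.05, and 1154 with an unadjusted p under 0.05. The differences of Adipoq were near each other, at 11.39 under high salt and 11.31 in controls. HS3W held less of the adipocyte genes than the other high-salt eWAT libraries, with Adipoq at 0.0695, 0 and 0 FPKM in liver and 1936, 692 and 2059 FPKM in eWAT.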

How the data were processed

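Total RNA of liver and eWAT was isolated with TRIzol, and rRNA-depleted, stranded libraries were read paired-end on a NovaSeq instrument. According to the paper, trimming was by cutadapt, alignment to mm10 by hisat2, and FPKM were computed by the authors with cuffdiff on an Ensembl annotation. The submitters' processing notes name HISAT2, HTSeq 0.9.1 and the builds mm9 and mm10. The deposited values are FPKM for 21899 genes. With exon lengths of GENCODE M21 (mm10), 18330 of 18822 genes above 0 gave whole fragments (within 0.02) in all 18 libraries, and 492 did so at a different whole length.

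Libraries were grouped by their titles. limma 3.58.1 (R 4.3.3) was run on log2(FPKM + 0.5) with tissue as the only term, eBayes and a trend, on genes whose 6-library mean reached 0.5 FPKM. Fold changes are on this scale, which understates the change of low genes. A call needed a Benjamini-Hochberg adjusted p under 0.05 over all 12719 genes, 2-sided, and a log2 fold change of at least 1 (4 for the 16-fold rule). The rule that both scalings must call a gene was added after the data were seen. Median-ratio scaling divides each library by the median ratio of its genes to their geometric mean. DESeq2, which the authors used, needs counts and was not run. The script was tested on simulated data. The comparison, its members and the 44 gene lists (920 genes, 820 tested) were chosen with earlier results of these data known. Genes named are the markers, the 10 largest rises and falls at 16-fold (groups apart, at least 10 FPKM in the higher tissue, no mitochondrial or predicted genes), the 5 most abundant with a scaled change under 0.5, list members and pairs. Some genes are not reported here. The labels do not say that replicate numbers pair libraries. For libraries of the same replicate number, deviations from the group means correlated at -0.113, -0.0997 and -0.0737. CON72L and CON71W, which share neither number, gave 0.112, so these values cannot settle a pairing. CON16L and CON16W, and CON72L and CON72W, share a number in their names (0.118 and -0.0737), which the labels do not call a mouse. Alternatives were other pseudocounts, filters, scalings, weights and blocks, leaving out each library, and voom on the recovered fragments. The depth gives narrow intervals: the 95% Wilson interval of the mitochondrial share of CON14L was 60.78% to 60.85%, which covers counting error only. Promoters were from RefSeq. Other steps used Python 3.11.15, pandas 2.3.3 and matplotlib 3.10.9.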

Additional observations from a re-analysis of the deposited data

How the results depend on the processing

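Counts moved by over 1.5 times under other scalings, pseudocounts and voom. Genes higher in eWAT numbered 7939 in the deposited FPKM, 2842 with median-ratio scaling, 2799 with quantile normalization, 4079 without mitochondrially encoded genes, 3200 with voom on recovered fragments and median-ratio library sizes, and 2842 under both scalings. Genes higher in liver numbered 930, 2404, 2211, 1560 and 2736 in the first 5 of these. Genes at least 16-fold higher in eWAT numbered 433, 149, 176 and 279 in the first 4, 149 under both scalings, 1036 with a pseudocount of 0.1, 281 with a pseudocount of 1 and 1552 with voom and library totals. Genes at least 16-fold higher in liver numbered 328, and 663 with voom and median-ratio library sizes. Control calls called in the same direction in the high-salt libraries numbered 7704, 4110 after median-ratio scaling and 3575 after quantile normalization. The tissue difference by diet was called in 0 genes, in 61 with a pseudocount of 0.1 and in 27 after quantile normalization. The causes of these changes were not tested. The voom fits, the rule of both scalings, the fit with CON72L as the only liver library and the alternatives for the high-salt results were chosen after seeing the data. Under every alternative run 0 of the 8869 calls turned to the opposite call, and between 755 and 761 of the 761 16-fold calls were called in the same direction at 2-fold.

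Leaving out each library in turn gave 7498 to 8271 genes higher in eWAT, 870 to 982 higher in liver, 378 to 566 at least 16-fold higher in eWAT and 313 to 345 at least 16-fold higher in liver. With the replicate number as a block these counts were 7961, 923, 433 and 328. The labels do not say that replicate numbers pair the libraries. The block moved none of these 4 counts by more than 1.5 times and 3 of the 88 list counts. Mesothelial markers higher in liver went from 2 to 1, epididymal markers higher in eWAT from 0 to 1 and germ cell markers higher in eWAT from 1 to 4. With the number in the library name as a random block the counts were 7953, 937, 425 and 331, and with only the 2 pairs that share it 7811, 993, 381 and 348. Of the 88 list counts, leaving out a library moved 6 to 11 by more than 1.5 times and median-ratio scaling moved 37. Those of fatty acid oxidation, cholesterol, oxidative phosphorylation, ribosomal protein, skeletal muscle and germ cell genes are among those that moved furthest. Among named genes, the log2 fold change took the opposite sign, with a call in one of the fits, with median-ratio scaling -0.0160 for Angptl4, -1.0005 for C4b, -1.4354 for Cpt1a, -0.1976 for Hsd17b4, and with voom on recovered fragments, median-ratio library sizes -0.0504 for Angptl4, -1.0402 for C4b, -1.5123 for Cpt1a, -0.0386 for Cyp39a1, -1.0347 for G0s2, -0.1815 for Hsd17b4, and with quantile normalization -1.0550 for Cpt1a, -0.3476 for Cyp39a1, and with high salt libraries instead -0.3473 for Cyp39a1, -1.9540 for Hp.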
